A study of Homo sapiens with 12 samples.

Results

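SEL201, an inhibitor of the kinases MNK1 and MNK2, was compared with no inhibitor in A375, an established line of human melanoma cells in which BRAF is mutated and active. The comparison took the 3 libraries labelled SEL201 and the 3 labelled UNTREATED, paired by the replicate number in their titles, which makes 6 of the 12 libraries in the series. Cells of the SEL201 group received 2.5 µM SEL201 and those of the UNTREATED group carry DMSO, the drug solvent, as their treatment label. All groups were collected at 72 h. The remaining 6 libraries were 3 of cells given 50 nM OTX015, an inhibitor of BET bromodomain proteins, and 3 of cells given both agents at these doses (COMBO). The study asked which transcripts MNK and BET inhibition change in BRAF-mutated melanoma cells. The labels do not say whether libraries of a group came from separate cultures, so each p-value is set against library-to-library spread that may be technical. A375 is 1 cell line, so the groups describe that line.

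MNK1 and MNK2 are activated by the MAP kinases ERK and p38 and phosphorylate the cap-binding translation factor eIF4E. Phosphorylated eIF4E favours the translation of a subset of mRNAs, many of which encode proteins of invasion, inflammation and survival. The kinases act on translation, so an effect on the kinase itself need not show in the amount of an mRNA. BET proteins, the targets of OTX015, bind acetylated histones and promote transcription, and the OTX015 libraries serve here to show which transcripts moved with SEL201 and little with the BET inhibitor.

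The deposited table held 8579 genes, with total counts of 16382375 to 22626418 in the SEL201 libraries and 20346729 to 24111541 in the UNTREATED libraries. The table covers genes with mean counts from 78.7 to 9159, and MYC, MKNK2 and EIF4E are among the genes not analysed here. Libraries numbered 3 stood apart from those numbered 1 and 2 in every group: the chi-square per degree of freedom was 9.11 to 16.8 for pairs within a group that included number 3 and 6.34 to 7.64 for the others. The replicate number entered every fit as a block. Of the melanocyte lineage markers, 12 of 20 were measured, MITF, PMEL and MLANA among them, and summed to 1289 to 1344 CPM in UNTREATED and 1190 to 1221 CPM in SEL201 libraries. CPM, gene counts scaled to the same library total, compare 1 gene between libraries, not genes with each other. Markers of other cell types were also present: 13 epithelial markers summed to 2316 to 2981 CPM in UNTREATED and 1136 to 1408 CPM in SEL201 libraries, and 6 fibroblast markers to 489 to 585 CPM and 287 to 317 CPM. The single measured leukocyte marker, LYZ, was at 39.2 to 50.2 CPM and 29.3 to 32.4 CPM, and the 2 endothelial markers, KDR and PTPRB, summed to 100 to 163 CPM and 71.9 to 116 CPM. PTPRC and PECAM1, defining markers of leukocytes and endothelium, were not analysed here, and the part of other cells in the results was not tested. In such bulk libraries fewer cells of a type and less RNA per cell cannot be told apart.

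SEL201 changed the levels of many transcripts by small amounts. With SEL201, 1541 genes rose (18% of those tested) and 1639 fell (19.1%), together 37.1%, at an adjusted p under 0.05 by edgeR's quasi-likelihood test. The median log2 change was 0.21 over the genes that rose and -0.32 over those that fell, beside -0.00 over all genes. Changes of at least 2-fold were found in 11 genes that rose (0.128%) and 109 that fell (1.27%), and a log2 change of at least 1.5 was reached by 0 genes that rose and 28 that fell. The strong changes were thus mostly falls. All 11 and all 109 were also called in the same direction with OTX015, as were 85.6% of all 3180 genes called with SEL201. By a direct test of SEL201 against OTX015, the OTX015 change was the larger in 8 and 78 of them and the smaller in 1 and 8. Over all 3180 genes the OTX015 change was the larger in 46.1%. Both changes are measured from the same UNTREATED libraries. Among the 3180 genes called, 3114 moved in the same direction in all 3 numbered pairs. Without the replicate block the same test called 867 genes higher and 953 lower, and all 1820 of these were also called with the block. Without all 4 number 3 libraries it called 1290 and 1410 with the block.

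**Figure D1:**
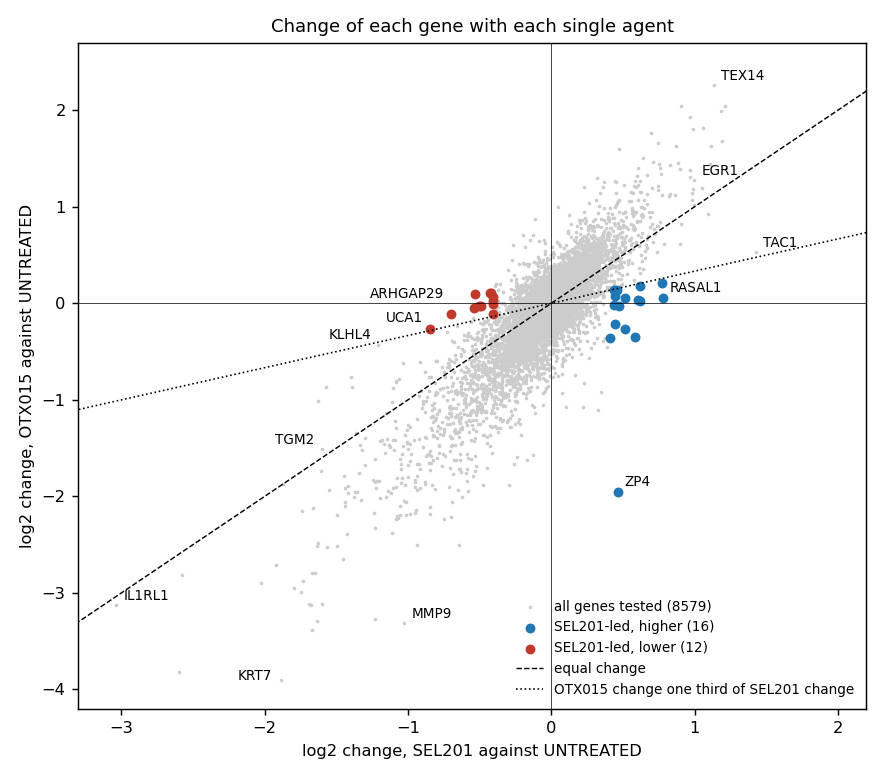
Log2 change with SEL201 (x axis) and with OTX015 (y axis), each against the same 3 UNTREATED libraries, for 8579 genes, with the genes that moved with SEL201 and little or oppositely with OTX015 in colour ("SEL201-led"); the dashed line marks equal change and the dotted line the limit on the OTX015 change. Because both axes share the UNTREATED libraries, the slope of the cloud is no measure of likeness between the agents. The marked genes, 16 higher and 12 lower with SEL201, lie near or across the horizontal line at 0.

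The transcript with the largest rise was TAC1, the gene of the precursor of the neuropeptides substance P and neurokinin A. TAC1 stood at 26.3, 25.1 and 28.6 CPM in UNTREATED and at 71.1, 63.3 and 82.4 CPM in SEL201 libraries. Every SEL201 library was above every UNTREATED library. The log2 change was 1.43 ± 0.08 (SE from the fit over all 12 libraries, 3 per group, edgeR adjusted p = 3.8e-15). With OTX015 alone TAC1 was at 39.7, 27.8 and 50.3 CPM, so SEL201 libraries exceeded all OTX015 libraries too, with a log2 difference of 0.90 (edgeR adjusted p = 7.9e-11). TAC1 was highest in COMBO, at 128, 109 and 152 CPM.

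The other large rises joined transcription factors, membrane proteins and a chemokine. EGR1, an immediate early transcription factor induced by growth signals, went from 178, 166 and 176 CPM to 334, 406 and 306 CPM, a log2 change of 1.0 ± 0.05 (edgeR adjusted p = 3.8e-15). FOS, an AP-1 subunit of the same immediate early class, rose by a log2 value of 0.67 ± 0.07 (edgeR adjusted p = 1.8e-08). In neither gene did the 2 groups overlap. SESN3, a sestrin that restrains mTORC1, stood at 30.9, 33.3 and 33.2 CPM in UNTREATED and at 60.5, 65.0 and 68.2 CPM in SEL201 libraries. ID4, an inhibitor of basic helix-loop-helix factors, rose by 1.11 ± 0.15, and NXN, the redox protein nucleoredoxin, by 1.18 ± 0.10. With OTX015 the log2 changes were 1.28 for EGR1, 1.80 for SESN3, 1.63 for ID4 and 1.99 for NXN. Others in the set were SYT12, a synaptotagmin, at 1.21, TEX14 at 1.13, ATP1B2, a sodium pump subunit, at 1.11, PGBD5 at 1.09, S1PR3, a sphingosine 1-phosphate receptor, at 0.99, and CX3CL1, the chemokine fractalkine, at 0.99 (log2 changes). SYT12, TEX14, ATP1B2, PGBD5 and S1PR3 had UNTREATED means between 2.2 and 4.4 CPM, so they met the naming minimum of 5 CPM only through the SEL201 libraries, where they are high. MEGF10, an engulfment receptor, rose from 56.2, 52.2 and 24.4 CPM to 101, 103 and 67.2 CPM, and the number 3 library was the lowest in both groups.

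The largest falls were in receptors, keratins and serpins. IL1RL1, the receptor for interleukin 33, fell from 252, 284 and 254 CPM to 37.0, 25.1 and 34.1 CPM, a log2 change of -3.04 ± 0.11 (edgeR adjusted p = 1.4e-19). IL7R, the interleukin 7 receptor chain, fell from 386, 441 and 484 CPM to 122, 120 and 166 CPM. TGM2, a transglutaminase that cross-links matrix proteins, fell from 620, 605 and 873 CPM to 211, 194 and 286 CPM (log2 change -1.60 ± 0.03, edgeR adjusted p = 5.3e-25). The groups were fully apart in all 3 genes. With OTX015 the log2 changes of IL1RL1, IL7R and TGM2 were -3.13, -3.11 and -1.51. SPP1, the secreted matrix protein osteopontin, fell by 1.74 on the log2 scale, CALB1, a calcium buffer, by 2.58, TM4SF18 by 1.80 and MYO7B, a myosin of microvilli, by 1.73. CALB1 varied widely among UNTREATED libraries, at 15.9, 27.2 and 41.9 CPM, against 4.80, 2.85 and 5.85 CPM with SEL201. CALB1, MYO7B and the serpin SERPINB5 had SEL201 means under 5 CPM. These genes met the naming minimum of 5 CPM only through the UNTREATED libraries, where they are high.

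The epithelial genes fell as a block. All 13 measured of 21 listed keratinocyte and epithelial genes were called lower, with a median log2 change of -0.98, beside 19.1% of all genes called lower and a median of -0.00 over all genes. KRT80, a keratin, fell from 751, 809 and 1136 CPM to 220, 220 and 376 CPM (log2 change -1.75 ± 0.04, edgeR adjusted p = 2.7e-23). KRT81 fell by 2.60, KRT7 by 1.88, KRT14 by 0.98 and LAMB3, a laminin chain of epithelial basement membrane, by 0.70 on the log2 scale. SERPINB5, the serpin maspin, fell by 1.92 and SERPINB7 by 2.03. With OTX015 the list's median was -1.57, and the direct test of SEL201 against OTX015 placed the fall with SEL201 as the larger in 0 of the 13. Reads of closely related keratins can be shared between paralogs, so the values of KRT6A, KRT6B and KRT81 are uncertain to that extent.

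**Figure D2:**
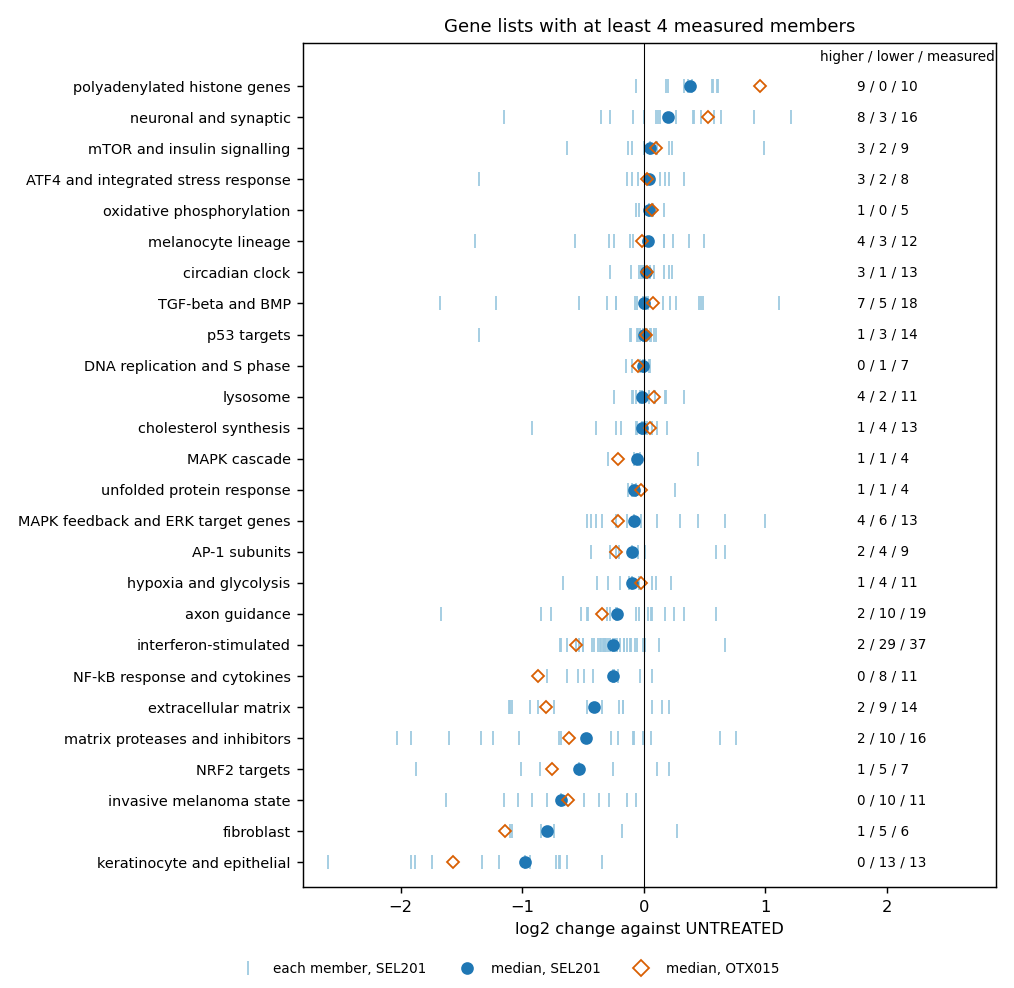
Log2 change with SEL201 for each measured gene (ticks) of 26 gene lists with at least 4 measured members, with the list's median for SEL201 (filled circles) and for OTX015 (open diamonds), both against UNTREATED; the numbers at the right count genes called higher, called lower and measured. Epithelial, fibroblast, invasive-state and NRF2 lists have the lowest SEL201 medians, and the polyadenylated histone genes the highest.

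Genes of the invasive, dedifferentiated melanoma state fell with SEL201 in 10 of 11 measured cases (19.1% of all genes fell), with a median log2 change of -0.68 with SEL201 and -0.62 with OTX015. By the direct test of SEL201 against OTX015, the fall with SEL201 was the larger in 4 of the 10 and that with OTX015 in 5. ANKRD1, a target of the YAP and TAZ coactivators, was at 42.2, 59.9 and 61.0 CPM in UNTREATED and at 14.1, 16.0 and 23.3 CPM in SEL201 libraries (log2 change -1.63 ± 0.09, edgeR adjusted p = 4.1e-15). NGFR, a neural crest receptor, went from 51.6, 54.6 and 88.6 CPM to 25.5, 25 and 44.9 CPM, a log2 change of -1.04. Neither gene overlapped between UNTREATED and SEL201 libraries. With OTX015 the falls of ANKRD1 and NGFR were smaller, at -1.01 and -0.62. The fitted difference of SEL201 from OTX015 was -0.62 (edgeR adjusted p = 3.6e-06) and -0.41 (edgeR adjusted p = 0.00064) on the log2 scale. The libraries of these 2 groups overlapped in both genes, with OTX015 at 20.7, 26.9 and 34.1 CPM for ANKRD1 and 35.4, 41.4 and 46.9 CPM for NGFR. CTGF, another YAP and TAZ target, fell with SEL201 from 278, 332 and 405 CPM to 217, 258 and 309 CPM and stood at 283, 356 and 394 CPM with OTX015. The CTGF groups overlapped in level, and each numbered pair fell, by 0.36, 0.37 and 0.39. SOX9, a neural crest transcription factor, had a log2 change of -0.28 with SEL201 and 0.15 with OTX015. In the fit without the replicate block neither CTGF nor SOX9 passed the threshold (edgeR adjusted p = 0.16 and 0.21), and SOX9 also missed it without UNTREATED replicate 2 (edgeR adjusted p = 0.07), UNTREATED replicate 3 (0.053), SEL201 replicate 3 (0.057) or all 4 number 3 libraries (0.071). DKK1, a secreted Wnt antagonist, and VEGFC, a lymphatic growth factor, fell by 1.15 and 0.92 with SEL201 and by 1.41 and 1.40 with OTX015.

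Extracellular matrix genes fell in 9 of 14 cases and rose in 2 (median -0.41), and matrix proteases and their inhibitors fell in 10 of 16 and rose in 2 (median -0.48). Over all genes 19.1% fell and 18% rose, which is the background for these counts and for those of the TGF-beta and NRF2 lists. MMP9, a gelatinase, fell from 904, 750 and 1382 CPM to 444, 393 and 637 CPM, with no overlap. The MMP9 change was -1.03 with SEL201 and -3.31 with OTX015. MMP17, a membrane-anchored metalloprotease, moved the other way, from 201, 185 and 223 CPM to 330, 329 and 368 CPM. Among the matrix genes LOXL4, a lysyl oxidase, fell by 1.11, COL6A3 by 1.10 and COL12A1 by 1.08. FST, the activin antagonist follistatin, and LTBP2, a TGF-beta binding protein, fell by 1.67 and 1.21, within a TGF-beta and BMP list of which 7 of 18 genes rose and 5 fell. In the NRF2 list 5 of 7 genes fell and 1 rose. Its largest falls were AKR1C1 at -1.87, AKR1C2 at -1.01 and AKR1C3 at -0.85, aldo-keto reductases whose near-identical sequences make the split of reads between them uncertain.

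Interferon-stimulated genes fell by small amounts in 29 of 37 measured cases and rose in 2, beside 19.1% and 18% of all genes, with a median of -0.25 with SEL201 and -0.55 with OTX015. IFI44 stood at 151, 154 and 148 CPM in UNTREATED and at 104, 97.3 and 90.2 CPM in SEL201 libraries, and ISG20, an antiviral exonuclease, at 298, 277 and 264 CPM and 205, 190 and 186 CPM. IRF7, a transcription factor of the interferon response, moved against the list with a log2 change of 0.67. Among 31 interferon-stimulated genes called, the SEL201 change went beyond that with OTX015 in 0. Of the 11 measured NF-kB response and cytokine genes 8 fell and 0 rose, against the same background. PTGS2, the inducible cyclooxygenase, fell by 0.80 and CCL2, a monocyte chemokine, by 0.42, beside -1.60 and -1.55 with OTX015.

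Of all genes 18% rose and 19.1% fell with SEL201. Polyadenylated histone genes rose in 9 of 10 cases (median 0.38 with SEL201 and 0.95 with OTX015), HIST1H2BC by 0.61 and HIST1H2BJ by 0.57, although histone genes resemble each other closely enough for reads to be shared. Of the 16 neuronal and synaptic genes 8 rose and 3 fell, with TUBB3, a neuronal tubulin, at 0.58 and KIF1A, an axonal motor, at -1.15. The melanocyte list was divided, with 4 of 12 genes higher and 3 lower and a median of 0.04. MLPH, a linker of melanosomes to the motor, fell from 14.3, 12.4 and 12.6 CPM to 5.37, 5.56 and 4.02 CPM and was at 6.81, 7.53 and 7.22 CPM with OTX015, while S100B rose by 0.37 and GPNMB and MITF fell by 0.56 and 0.24. Of 7 DNA replication genes 1 was called, CCNE1, a G1 to S cyclin, at -0.15.

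In the MNK and eIF4E pathway itself 2 of 24 listed genes were measured. MKNK1, which encodes MNK1, was at 223, 226 and 221 CPM in UNTREATED and at 238, 260 and 241 CPM in SEL201 libraries, a log2 change of 0.14 ± 0.04 (edgeR adjusted p = 0.0024). EIF4A1, the helicase of the cap-binding complex, had a log2 value of -0.10 ± 0.07 (edgeR adjusted p = 0.3). SEL201 acts on the kinase protein, so these mRNA levels are no check of the treatment. The MAP kinase cascade upstream of MNK had 4 measured genes, with the scaffold KSR1 at 0.45, the p38 kinase MAPK11 at -0.29 and BRAF at -0.04 (edgeR adjusted p = 0.46). Beside 18% of all genes higher and 19.1% lower, of 13 MAPK feedback and ERK target genes 4 rose and 6 fell, and of 9 AP-1 subunits 2 rose and 4 fell. FOSL2, an AP-1 subunit, went from 469, 481 and 493 CPM to 341, 358 and 371 CPM, opposite to FOS.

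To find transcripts that moved with SEL201 and little with OTX015, genes were taken that were called with SEL201 at a log2 change of at least 0.4, that changed with OTX015 by at most 33.3% of that amount or in the opposite direction, and that differed between the 2 agents by the SEL201 against OTX015 test. That direct test called 1810 genes higher in SEL201 than in OTX015 libraries (21.1%) and 1604 lower (18.7%). The rule gave 16 higher and 12 lower genes, 3.06% of the 916 genes called with SEL201 at a log2 change of at least 0.4. It limits the size of the OTX015 change, so a small change with OTX015 could still be called. The 3 SEL201 and 3 UNTREATED libraries did not overlap in 18% of genes in the higher and 18.8% in the lower direction. Because these values chose the genes, they are given as a description with no test. The COMBO libraries did not enter the rule, while the OTX015 libraries did. In COMBO against OTX015, 10 of the 16 higher genes were called higher and 1 lower, beside 10% and 12.2% of all genes. Of the 12 lower genes 6 were called lower and 0 higher. Among all genes called higher with SEL201, 40.4% were called higher there, and among those called lower 46.8% were called lower. Because the OTX015 libraries helped to choose the genes, these counts too are a description. In that contrast SLC24A2, GNG7, DCHS1 and CD33 had log2 changes of 0.08, -0.10, 0.07 and 0.01, and ZP4 -0.49. In most transcripts the 2 single agents were not told apart or OTX015 had the larger change: the direct test placed SEL201 beyond OTX015 in 147 of the 1541 genes that rose with SEL201 and 147 of the 1639 that fell, by any amount.

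The first of the 16 higher genes described here is a transcription factor. EGR2, a growth-factor-induced relative of EGR1, was at 26.5, 22.9 and 25.7 CPM in UNTREATED, at 39.7, 32.9 and 29.3 CPM with SEL201, at 25.2, 17.0 and 22.9 CPM with OTX015 and at 25.4, 22.3 and 23.9 CPM in COMBO. All 3 SEL201 libraries lay above the other 9. EGR1, by contrast, was at 445, 446 and 374 CPM with OTX015 alone, above the SEL201 libraries of the same number. The promoters of both genes hold CArG boxes, the site of the serum response factor through which growth signals act on immediate early genes. The 300-base windows around their start sites are shown because the 2 related genes carry the same kind of site while their levels with OTX015 went apart. They are the RefSeq sequence of GRCh38.p14 for chr5:138465229-138465528 on the plus strand (EGR1) and chr10:62816317-62816616 on the minus strand (EGR2, 1 of its 3 start sites), with the CArG boxes in capitals.
EGR1: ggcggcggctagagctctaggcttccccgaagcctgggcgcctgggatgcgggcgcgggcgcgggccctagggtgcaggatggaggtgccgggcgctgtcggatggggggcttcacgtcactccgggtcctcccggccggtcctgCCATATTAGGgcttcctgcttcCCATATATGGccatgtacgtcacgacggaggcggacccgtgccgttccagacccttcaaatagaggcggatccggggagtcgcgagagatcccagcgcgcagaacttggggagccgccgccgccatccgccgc
EGR2: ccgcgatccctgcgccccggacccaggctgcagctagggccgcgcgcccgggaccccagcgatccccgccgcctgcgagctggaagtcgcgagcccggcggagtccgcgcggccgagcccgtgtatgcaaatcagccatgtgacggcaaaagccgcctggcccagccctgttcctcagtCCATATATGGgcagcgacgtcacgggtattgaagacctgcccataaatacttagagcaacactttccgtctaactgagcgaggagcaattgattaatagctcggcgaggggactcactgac
The EGR1 window has 2 matches and the EGR2 window 1. A CArG box was present in 454 of 35116 RefSeq promoters of this length (1.29%), searched on both strands. A match describes the letters only, and binding was not measured.

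RASAL1, a Ras GTPase-activating protein regulated by calcium, had the largest SEL201 rise among these genes. RASAL1 was at 58.3, 49.9 and 62.9 CPM in UNTREATED, 95.8, 94.1 and 101 CPM with SEL201, 65.2, 44.7 and 69.6 CPM with OTX015, and 81.2, 68.7 and 100 CPM in COMBO. SEL201 and UNTREATED libraries were fully apart, and OTX015 libraries spread around the UNTREATED ones. HS6ST3, a heparan sulfate sulfotransferase, was at 13.5, 15.6 and 10.7 CPM in UNTREATED, 22.0, 23.4 and 22.4 CPM with SEL201, 14.9, 16.7 and 14.4 CPM with OTX015, and 22.7, 25.2 and 22.4 CPM in COMBO. The 6 libraries with SEL201 were thus all higher than the 6 without it. LSAMP, a neuronal adhesion protein of the IgLON family, was at 109, 95.1 and 103 CPM in UNTREATED, 145, 143 and 150 CPM with SEL201 and 85.9, 79.0 and 90.5 CPM with OTX015, so that the agents moved it in opposite directions. In COMBO LSAMP was at 101, 93.7 and 107 CPM, within the UNTREATED range apart from the second library.

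The other higher genes had SEL201 log2 changes of 0.41 to 0.62. SLC24A2, a sodium-calcium exchanger, was at 0.59 with SEL201 and -0.35 with OTX015, and LRRK2, a large kinase mutated in familial Parkinson disease, at 0.41 and -0.36. The OTX015 change of SLC24A2 was close to the threshold (edgeR adjusted p = 0.049). ZNF536, a neuronal zinc finger repressor, had 0.62 and 0.02, ANKS1B, a postsynaptic scaffold, 0.61 and 0.04, and GNG7, a G protein gamma subunit, 0.51 and 0.05. KCNS3, a potassium channel subunit, had 0.46 and 0.14, PLXNB3, a semaphorin receptor, 0.44 and 0.14, FXYD3, a regulator of the sodium pump, 0.45 and 0.08, MOB3B 0.62 and 0.18, and DCHS1, a large cadherin, 0.44 and -0.02. ZP4, a glycoprotein of the egg coat, was the extreme case of opposite change: 17.1, 16.6 and 22.7 CPM in UNTREATED, 24.4, 22.2 and 31.0 CPM with SEL201, and 3.48, 3.79 and 7.57 CPM with OTX015. Its SEL201 and UNTREATED libraries overlapped, while its OTX015 libraries lay far below both. LRRK2 and GNG7 also overlapped between SEL201 and UNTREATED libraries. The last of the 16 is an entry with an Rfam family name. KCNS3 and PLXNB3 were called higher with OTX015 too (edgeR adjusted p = 0.0044 and 0.0065). ZP4, LRRK2 and GNG7 without the replicate block missed the threshold with SEL201 (edgeR adjusted p = 0.16, 0.097 and 0.059), and GNG7, MOB3B, KCNS3 and PLXNB3 missed it against OTX015 (edgeR adjusted p = 0.081, 0.083, 0.077 and 0.052). For GNG7, MOB3B and ANKS1B the difference from OTX015 depended on single libraries, and without OTX015 replicate 2 the edgeR adjusted p was 0.085, 0.072 and 0.14. Without SEL201 replicate 2 it was 0.066 for GNG7 and 0.15 for MOB3B, without SEL201 replicate 1 it was 0.053 for ANKS1B, and for MOB3B it was 0.055 without SEL201 replicate 3, 0.071 without OTX015 replicate 3 and 0.089 without all 4 number 3 libraries.

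**Figure D3:**
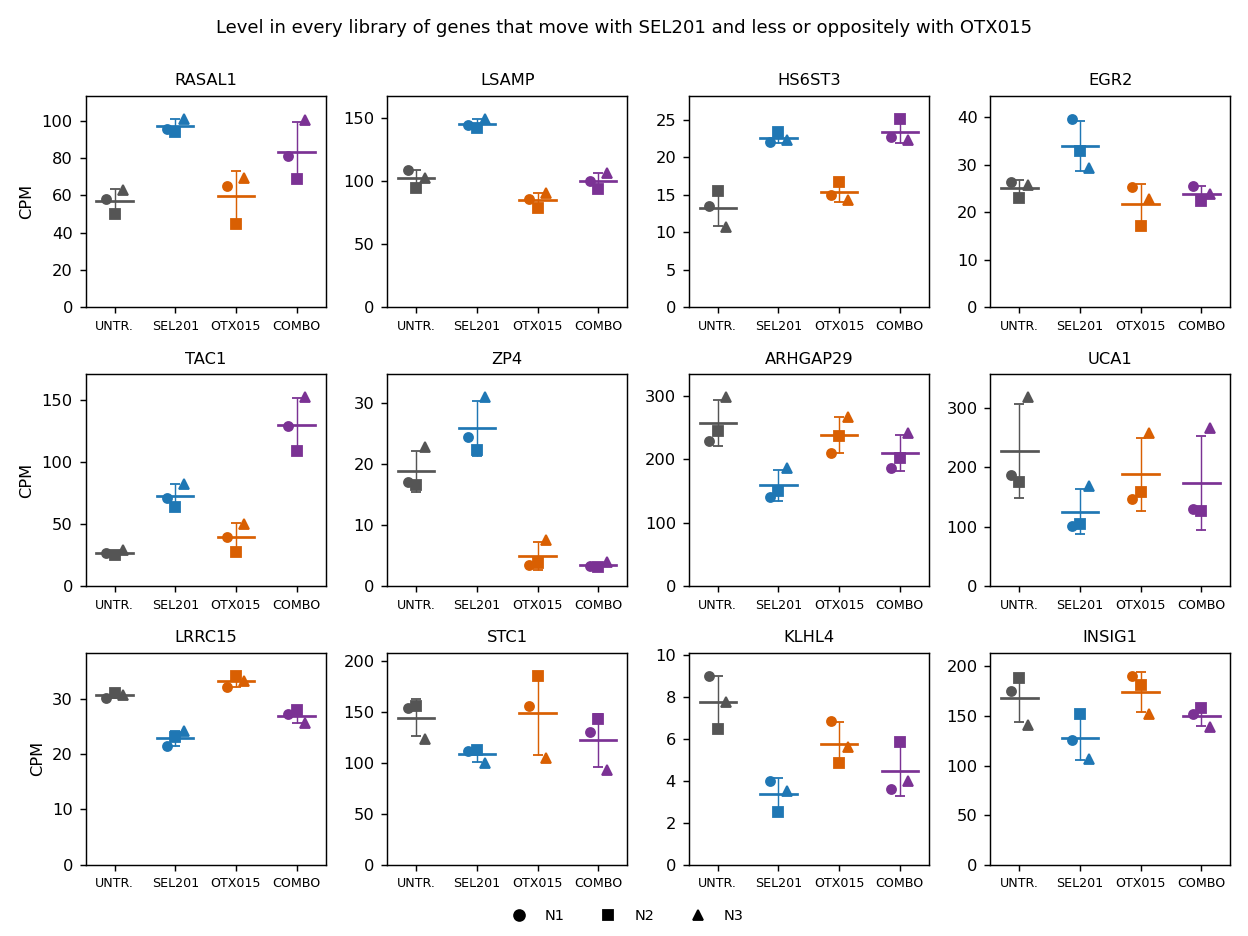
CPM (y axis, linear from 0) in all 12 libraries for 12 genes; marker shape gives the replicate number, horizontal lines are group means and bars are 1 SD (n = 3). RASAL1, HS6ST3 and EGR2 are higher with SEL201 alone and near the UNTREATED level with OTX015 alone, and ARHGAP29, UCA1, LRRC15, STC1, KLHL4 and INSIG1 have lower means with SEL201 than with OTX015, with overlap in UCA1, STC1 and INSIG1.

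The 12 lower genes included ARHGAP29, a GTPase-activating protein. ARHGAP29 was at 230, 244 and 298 CPM in UNTREATED, 141, 150 and 186 CPM with SEL201, 211, 237 and 267 CPM with OTX015 and 186, 202 and 241 CPM in COMBO. The fall with SEL201 was -0.70 on the log2 scale, against -0.11 with OTX015, which was called too (edgeR adjusted p = 0.012). UCA1, a long noncoding RNA described in several carcinomas, was at 188, 175 and 318 CPM in UNTREATED, 102, 105 and 169 CPM with SEL201 and 147, 159 and 258 CPM with OTX015, and the number 3 library was the highest in each group. UCA1 was also called lower with OTX015, at -0.27 (edgeR adjusted p = 6.4e-05). In the fit without the replicate block UCA1 missed the threshold with SEL201 (edgeR adjusted p = 0.068) and against OTX015 (edgeR adjusted p = 0.2).

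LRRC15, a leucine-rich repeat membrane protein, was at 30.2, 31.2 and 30.8 CPM in UNTREATED, 21.5, 23.1 and 24.2 CPM with SEL201, 32.1, 34.2 and 33.2 CPM with OTX015 and 27.3, 28.1 and 25.6 CPM in COMBO. Its 4 groups did not overlap, in the order SEL201, COMBO, UNTREATED, OTX015. STC1, the secreted hormone stanniocalcin, was at 153, 155 and 123 CPM in UNTREATED, 112, 113 and 99.7 CPM with SEL201 and 156, 185 and 105 CPM with OTX015. IL11, a cytokine of the interleukin 6 family, is outside the 28 genes, since its SEL201 change was under the minimum of 0.4. It was called lower with SEL201 at -0.25 and higher with OTX015 at 0.22. It stood at 231, 234 and 182 CPM in UNTREATED, 179, 193 and 171 CPM with SEL201 and 267, 279 and 210 CPM with OTX015, with an overlap between UNTREATED and SEL201. Both LRRC15 and IL11 have an AP-1 site near their start, TGACTCA or its complement on the other strand, and are shown because both were below the UNTREATED level with SEL201 and not with OTX015. The windows are RefSeq GRCh38.p14 sequence for chr3:194369694-194369993 (LRRC15) and chr19:55370414-55370713 (IL11), both on the minus strand, with the AP-1 match in capitals.
LRRC15: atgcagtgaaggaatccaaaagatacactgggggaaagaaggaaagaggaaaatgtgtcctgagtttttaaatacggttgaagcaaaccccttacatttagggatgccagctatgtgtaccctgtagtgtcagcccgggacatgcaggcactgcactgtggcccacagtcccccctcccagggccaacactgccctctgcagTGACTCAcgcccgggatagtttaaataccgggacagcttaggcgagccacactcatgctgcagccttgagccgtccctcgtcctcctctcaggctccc
IL11: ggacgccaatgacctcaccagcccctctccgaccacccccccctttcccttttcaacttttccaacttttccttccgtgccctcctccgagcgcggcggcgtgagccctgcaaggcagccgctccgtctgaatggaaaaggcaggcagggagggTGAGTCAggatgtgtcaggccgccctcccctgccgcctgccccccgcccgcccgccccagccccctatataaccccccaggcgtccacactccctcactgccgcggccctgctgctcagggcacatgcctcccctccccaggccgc
The matches begin 48 bases before the start of LRRC15 and 96 before that of IL11. The same letters occur in 1738 of the 35116 promoters (4.95%), and 1 of 35 promoters found for 19 of the 28 genes has one, as 1 has a CArG box. STC1 and IL11 missed the threshold with SEL201 in the fit without the replicate block (edgeR adjusted p = 0.12 and 0.14), and STC1 against OTX015 (edgeR adjusted p = 0.08).

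The rest of the lower set had SEL201 log2 changes from -0.54 to -0.41. THSD4, a matrix protein that binds fibrillin, was at -0.41 with SEL201 and -0.11 with OTX015, CD33, a sialic acid receptor, at -0.50 and -0.03, PRICKLE2, a planar polarity protein, at -0.53 and 0.10, and CUZD1 at -0.49 and -0.03. MIR222HG, the host transcript of 2 microRNAs, was at -0.41 and -0.01, and its groups overlapped. The remaining 3 carry clone-based names. THSD4 was called lower with OTX015 too (edgeR adjusted p = 0.035). MIR222HG had an edgeR adjusted p of 0.31 with SEL201 and 0.33 against OTX015 without the replicate block. PRICKLE2 missed the threshold with SEL201 without all 4 number 3 libraries (edgeR adjusted p = 0.057). CUZD1 missed it in that fit (0.1) and without SEL201 replicate 2 (0.066), SEL201 replicate 3 (0.055) or UNTREATED replicate 3 (0.078). Against OTX015, CUZD1 missed it without the 4 number 3 libraries (edgeR adjusted p = 0.09), SEL201 replicate 2 (0.087), SEL201 replicate 3 (0.072), OTX015 replicate 1 (0.06) or OTX015 replicate 3 (0.055).

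Several larger SEL201 changes lay just outside the limit on the OTX015 change. TAC1 changed with OTX015 by 0.53, or 0.371 of its SEL201 change. KLHL4, a Kelch-like protein, was at 9.01, 6.47 and 7.74 CPM in UNTREATED, 4.0, 2.50 and 3.54 CPM with SEL201 and 6.86, 4.83 and 5.59 CPM with OTX015, a share of 0.354. SLC13A5, a citrate transporter, and ELL2, an elongation factor, had shares of 0.35 and 0.386. Just inside the limit were UCA1 at 0.313 and PLXNB3 at 0.312.

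Genes called in opposite directions with the 2 single agents numbered 35 that were higher with SEL201 and lower with OTX015, and 28 the other way. Both contrasts use the UNTREATED libraries, and these values are a description. CYP1A1, a target of the aryl hydrocarbon receptor, was at 357, 328 and 315 CPM in UNTREATED, 492, 427 and 370 CPM with SEL201, 284, 227 and 256 CPM with OTX015 and 380, 285 and 298 CPM in COMBO. PPEF1, a calcium-binding phosphatase, showed the same order at 0.39 with SEL201 and -0.45 with OTX015. In both genes the UNTREATED, SEL201 and OTX015 libraries did not overlap. On the other side were TENM1, a teneurin, at -0.39 and 0.20, ARHGEF3, a guanine nucleotide exchange factor, at -0.26 and 0.14, TNFSF9, the ligand of the 4-1BB receptor, at -0.22 and 0.14, SYTL2, a vesicle transport protein, at -0.20 and 0.71, and STAC at -0.19 and 0.40. SEL201 and UNTREATED libraries overlapped in TENM1, TNFSF9 and SYTL2, and the number 3 pair of SYTL2 did not fall (log2 change 0.01). When the replicate block was dropped, TENM1, TNFSF9 and STAC missed the threshold with SEL201 (edgeR adjusted p = 0.11, 0.065 and 0.12), and STAC did so without SEL201 replicate 2 (0.065), SEL201 replicate 3 (0.052), UNTREATED replicate 2 (0.067) or all 4 number 3 libraries (0.078).

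Of the 35 genes, 7 carry HLA class II names (HLA-D), a group singled out after its values were seen. Class II proteins present antigen to T cells, and HLA-DRB6 is a pseudogene. The table holds 10 genes named HLA-D; with SEL201 7 were called higher and 0 lower (median 0.16), beside 18% and 19.1% of all genes, and with OTX015 0 higher and 10 lower (median -0.27), where 29.7% of all genes were called higher and 29.9% lower with OTX015. HLA-DQB1 was at 187, 178 and 225 CPM in UNTREATED, 230, 218 and 277 CPM with SEL201, 151, 148 and 201 CPM with OTX015 and 190, 183 and 238 CPM in COMBO. In each numbered trio SEL201 was highest and OTX015 lowest, while the groups themselves overlapped, with a SEL201 log2 change of 0.30. HLA-DQB2, HLA-DRB6, HLA-DPB1, HLA-DMB, HLA-DMA and HLA-DRB5 had SEL201 changes of 0.25, 0.20, 0.18, 0.17, 0.16 and 0.14, and HLA-DOA, HLA-DQA1 and HLA-DQA2 were not called. These genes are close relatives and reads can be shared between them. None of the 7 was called without the replicate block (edgeR adjusted p from 0.12 to 0.49). HLA-DMB also missed the threshold without UNTREATED replicate 1, 2 or 3 (0.17, 0.062 and 0.055) or SEL201 replicate 1 or 3 (0.26 and 0.096), HLA-DQB2 without UNTREATED replicate 1 or SEL201 replicate 1 (0.063 and 0.08) and HLA-DRB5 without SEL201 replicate 2 (0.091).

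Of 13 measured cholesterol synthesis genes 4 fell and 1 rose with SEL201, with a median of -0.02. The 5 called are a share near the 37.1% of all genes called, so the count is no result about the list, and its members are given only for their values beside OTX015. STARD4, a sterol carrier, was at 120, 129 and 95.3 CPM in UNTREATED, 65.6, 71.0 and 46.2 CPM with SEL201 and 78.3, 85.5 and 62.0 CPM with OTX015. INSIG1, which retains the sterol sensor in the endoplasmic reticulum, was at 176, 188 and 141 CPM, 126, 152 and 107 CPM, and 190, 181 and 152 CPM in the same order, and each SEL201 library was below its numbered partners. MSMO1 and HMGCS1, enzymes of the pathway, fell by 0.23 and 0.19. All 4 were lower with SEL201 than with OTX015 by the direct test, by 0.31, 0.45, 0.21 and 0.10 on the log2 scale (edgeR adjusted p = 7.4e-05, 6.6e-08, 0.00054 and 0.037). Over all 31 lists 24 of 200 distinct genes called with SEL201 went beyond OTX015, as did 294 of all 3180 called (9.25%). Further cases were HMOX1, heme oxygenase, at -0.25 with SEL201 and 0.05 with OTX015, and CCNE1 at -0.15 and 0.02. HMOX1 missed the threshold without the replicate block (edgeR adjusted p = 0.18).

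The effect of SEL201 was measured a second time in cells that also received OTX015, by the contrast of COMBO with OTX015 libraries, which has no library in common with the contrast of SEL201 with UNTREATED. Both contrasts come from 1 fit that shares its block and its estimate of the spread over all 12 libraries. In that setting 861 genes rose (10%) and 1047 fell (12.2%). The 623 genes called higher in both comparisons were 40.4% of those that rose with SEL201 alone and 72.4% of those that rose on top of OTX015. The 767 called lower in both were 46.8% and 73.3%. When each comparison was fitted on its own 6 libraries, 615 and 717 genes were called in both. Over all 8579 genes the 2 sets of log2 changes had a Pearson correlation of 0.69 and a Spearman correlation of 0.62 across genes, which are not independent replicates, and the libraries share their replicate numbers and gene depth. Genes that rose with SEL201 alone had a median of 0.21 there and 0.11 on top of OTX015, and those that fell -0.32 and -0.16. For genes selected instead by COMBO against OTX015 the medians were 0.21 and 0.21 for rises and -0.25 and -0.26 for falls. Without the replicate block 249 genes rose and 344 fell with COMBO against OTX015, with 194 and 271 called in both comparisons.

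**Figure D4:**
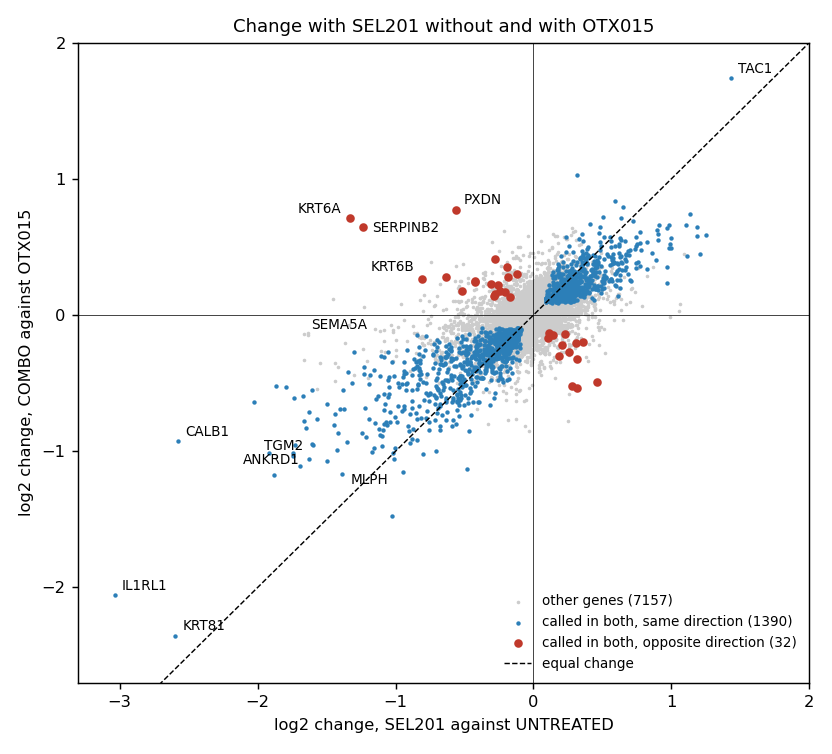
Log2 change with SEL201 in the absence (x axis) and presence (y axis) of OTX015, 1 point a gene, from 2 contrasts with no library in common, taken from 1 fit; the dashed line marks equal change. Blue points are 1390 genes called in both in the same direction, and 32 red points were called in opposite directions. The coloured genes passed a threshold on both axes, so their place about the diagonal is not read.

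IL1RL1 and KRT81 fell strongly in both settings, at -3.04 and -2.06 for IL1RL1 and -2.60 and -2.35 for KRT81. TAC1 rose by 1.43 alone and 1.74 on top of OTX015, and ANKRD1 and MLPH fell by 1.06 and 1.16 there. In 32 genes the calls had opposite signs, 13 of them higher and 19 lower with SEL201 alone. SERPINB2, a plasminogen activator inhibitor, was at 55.6, 44.6 and 84.4 CPM in UNTREATED and 22.0, 18.3 and 40.6 CPM with SEL201, but at 9.55, 7.75 and 27.4 CPM with OTX015 and 15.5, 13.1 and 41.8 CPM in COMBO. Within each number it was lowest with OTX015 alone. KRT6A and KRT6B had -1.33 and 0.71 and -0.81 and 0.27, and PXDN, a matrix peroxidase, -0.56 and 0.77. These genes were picked after their values were seen, and without the replicate block SERPINB2 and PXDN missed the threshold with SEL201 alone (edgeR adjusted p = 0.091 and 0.12).

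Whether the SEL201 change itself differed with OTX015 was tested by the interaction term of the same fit. It was called in 579 genes (6.75%), 345 with a positive difference (4.02%) and 234 with a negative one (2.73%). The term contains the change with SEL201 alone with a minus sign, so its sign against that change is not read here. In the fit lacking the block these counts dropped to 18 and 6. MEGF10 rose by 1.06 with SEL201 alone and by 0.03 on top of OTX015, where it already stood at 112, 106 and 78.0 CPM. NGFR fell by 1.04 alone and had -0.07 on top of OTX015, and SEMA5A, a semaphorin, had -1.67 and -0.14. Without OTX015 replicate 3 COMBO against OTX015 gave 572 rises, and the negative differences fell to 154 without SEL201 replicate 2, 147 without COMBO replicate 1 and 145 without COMBO replicate 2. Without all 4 number 3 libraries the positive differences numbered 218.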

How the data were processed

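RNA of 12 A375 libraries was measured by stranded, poly(A)-selected paired-end sequencing, per the labels' protocols. The deposited values are unnormalised whole-number read counts, 1 column for each library. Build hg19, STAR 2.5.4b, featureCounts, SAMtools 1.9, Trimmomatic, FastQC and DESeq2 appear in the submitters' processing notes with no role given. Annotation, strand setting and the filter that left 8579 genes: not given in the sources used here.

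Counts were fitted in edgeR 4.0.16 (R 4.3.3) with TMM scaling, filterByExpr (0 genes dropped), group and replicate number as a block over all 12 libraries, and the quasi-likelihood test with Benjamini-Hochberg adjustment over 8579 genes. TMM factors were 0.991 to 1.00, the biological coefficient of variation was 4.35% and 6 residual degrees of freedom remained. Errors are SE of the log2 change, derived from the test statistic of the fit over all 12 libraries. They are not the spread over the 3 pairs: the ID4 pairs were at 0.65, 1.16 and 1.67. A gene's log2 change comes from this fit, with a prior count of 2 for log2 CPM of single libraries. The labels do not say what the number marks. Deviations from group means correlated at 0.30 to 0.57 in the 3 same-numbered pairs of SEL201 and UNTREATED libraries (0.26 to 0.57 in all 18 such pairs) and at -0.46 to 0.19 in the 36 others, so the numbers were taken as pairs. No 2 libraries of the same group were alike within sampling noise.

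The members and gene lists were chosen with earlier results of these data known. Named genes were the 12 largest rises and falls with at least 5 CPM and no overlap between groups, the 12 genes in each direction that moved with SEL201 and little with OTX015, 6 in each direction with opposite calls, up to 4 with the lowest p in each of 31 lists, the MNK list and TGM2. Others, among them CTGF, SOX9, KLHL4, GNG7, MIR222HG, the HLA genes, KRT6A, KRT6B, SERPINB2, PXDN and the genes near the limits, were added after their values were seen. Alternatives were RLE scaling, DESeq2 1.42.0, no or a stricter filter (10 CPM in 3 libraries), fits on fewer groups, no replicate block, each library left out, and all number 3 libraries left out. Promoters come from RefSeq GRCh38.p14 and gene spans from GENCODE by symbol. The deposited counts are on hg19, so no other coordinates are given.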

Additional observations from a re-analysis of the deposited data

Results flagged for a closer look

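For 60 of the genes examined, the change with SEL201 in the presence of OTX015 differed from that without it, by the interaction term of the edgeR fit at an adjusted p under 0.05. The values are log2 changes with OTX015 minus those without. The change with SEL201 alone enters with a minus sign, so the sign of a value against that change is not read here. The same test called 6.75% of all genes, and most genes here were named for their SEL201 changes. KRT6A, KRT6B, SERPINB2 and PXDN were picked after their values were seen, for opposite calls with and without OTX015, so their values are a description. Without the replicate block 6 of the 60 were called: SESN3, AKR1C1, SPP1, ELL2, FST and KRT6B.

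Among genes that rose with SEL201 alone the values were MEGF10 (-1.02), CX3CL1 (-1.0), ZP4 (-0.95), ID4 (-0.68), NXN (-0.60), EGR1 (-0.50), SESN3 (-0.47), MMP17 (-0.37), NTN1 (-0.29), LSAMP (-0.27), FXYD3 (-0.26) and IRF7 (-0.25). MMP9, which fell in both settings, by -1.03 alone and -1.47 on top of OTX015, had -0.45.

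Keratin, serpin and epithelial genes had KRT6A (2.04), KRT6B (1.08), KRT80 (0.74), KRT14 (0.45), LAMB3 (0.46), SERPINB2 (1.89) and SERPINB7 (1.39). Receptors, cytokines and secreted proteins had IL1RL1 (0.98), IL7R (0.58), IL24 (0.92), TNFSF9 (0.27), SPP1 (1.13), DKK1 (1.04), VEGFC (0.50), FST (1.08), LTBP2 (0.32), NGFR (0.96), KDR (0.69), PTPRB (1.5) and SEMA5A (1.53). Matrix and stromal genes had COL1A1 (0.74), COL12A1 (0.78), DCN (0.90), PXDN (1.33), LOXL4 (0.23), TGM2 (0.65) and CTGF (0.20). Enzymes and transporters had AKR1C1 (1.35), AKR1C2 (0.56), AKR1C3 (0.51), PTGS2 (0.50), SLC13A5 (0.69), SLC16A3 (0.31) and STARD4 (0.42). The remaining genes had CALB1 (1.65), TM4SF18 (1.27), UCA1 (0.70), MIR222HG (0.34), ARHGAP29 (0.51), ANKRD1 (0.57), ELL2 (0.47), KIF1A (0.36), IRS1 (0.33), MITF (0.30), GPNMB (0.25), FOSL2 (0.24) and SAMD9 (0.22). All of these fell with SEL201 alone.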

How the results depend on the processing

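No setting turned the direction of a named gene's SEL201 change. Without the replicate block the counts higher and lower were 867 and 953 for SEL201 against UNTREATED, 1125 and 893 for SEL201 against OTX015, 249 and 344 for COMBO against OTX015, and 18 and 6 for the difference between the SEL201 changes with and without OTX015. The genes that moved with SEL201 and little with OTX015 then numbered 10 and 6, all 16 of them also found with the block, and 194 and 271 genes were called in both SEL201 comparisons. With a log2 change of at least 0.25 in place of 0.4, those genes numbered 43 and 29. Leaving out 1 library at a time gave 1244 to 1351 and 1366 to 1427 for SEL201 against UNTREATED, 572 to 683 rises and 767 to 880 falls for COMBO against OTX015, 261 to 318 positive and 145 to 274 negative differences, and 12 to 21 and 10 to 16 genes that moved little with OTX015. Without all 4 number 3 libraries there were 1290 and 1410 calls for SEL201 against UNTREATED and 218 positive differences. DESeq2 called 1451 and 1588 genes and shared 27 of the 28 genes that moved little with OTX015. RLE scaling, the filters and fits on the compared groups kept every count within 1.5 times. HLA-DMB missed the threshold in DESeq2 (adjusted p = 0.06), and MAPK3, not called at -0.08, passed it without UNTREATED replicate 2. Counts of a few CPM limit the precision of KLHL4, PRICKLE2, CUZD1, MOB3B, SLC24A2, ANKS1B and GNG7, and of KRT81 on top of OTX015.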

Other observations

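Gene span from start to end of the annotated locus was compared as a description, with 8499 of 8579 symbols matched (99.1%). The median span was 27.7 kb over all genes, 37.7 kb over those that rose with SEL201 and 29.5 kb over those that fell. The 16 genes that rose with SEL201 and moved little with OTX015 had a median span of 182 kb. LSAMP spans 1337 kb, ANKS1B 1258 kb and HS6ST3 749 kb. The 12 lower genes had a median of 18.7 kb, and 4 of them are long noncoding RNAs, UCA1 and MIR222HG among them. Long noncoding genes made up 11.5% of all genes, 4% of those that rose and 8.97% of those that fell. The genes were chosen by their values, the span of a locus says nothing of the isoform expressed, and no test was made.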
